A study of Bos taurus with 20 samples.

Results

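The genes described here rose steeply between 48 and 72 h after bovine muscle stem cells were moved to low serum, and kept the level they had reached at 96 h. They number 50 of the 27607 genes in the table and of the 14636 that passed a filter on low counts. The cells were satellite cells of the Belgian Blue breed, grown on collagen-coated flasks in medium with 20% fetal bovine serum (0 h) and then held in differentiation medium with 2% serum for 24, 48, 72 or 96 h. Every group shares the cell type, the breed and the coated flasks, and the number of donor animals is not given in the sources used here. PolyA RNA was sequenced from 4 biological replicates (A to D) at each of the 5 times, 20 libraries in all, with A and B labelled as batch 1 and C and D as batch 2. Library totals ran from 21100797 to 41998509 counts.

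Satellite cells are the stem cells that repair and enlarge muscle fibres. After serum is withdrawn in culture they leave the cell cycle, switch on the myogenic transcription factors, align and fuse into multinucleate myotubes. In that program, regulators come first, and the proteins of the contractile apparatus, of calcium handling and of muscle energy supply build up afterwards as myotubes mature. This is background: the files list genes by Ensembl cattle identifiers alone, and 0 of those identifiers could be paired with a symbol in the gene table used here. No role, chromosome, sequence or protein is therefore assigned to any of the 50 genes, the label of the cells could not be checked against marker genes, and at most 2 genes whose mean rose throughout and 2 whose mean was lower on the last day are identified.

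Membership was set by measured levels. Levels are in CPM, read counts scaled to a common library total, with library sizes corrected by the TMM method. They were averaged over the 4 libraries of a time, and 0.1 CPM was added before any ratio was taken. A gene had to reach at 72 h at least 3 times its 48 h level, at least 2 times its 0 h level and at least 1 CPM. The 72 h level had to be under 1.7 times the 96 h level, and the 96 h level under 2.5 times the 72 h level. At 24 h the level had to be above 0.5 times that at 0 h and under 2 times that at 96 h, and at least 1 count was needed at 0 h. The ratio of 72 h to 48 h did most of the selection. Of the 14636 genes, 86 met that condition, whatever else they met, and 2036 met every condition except that one. The 2 members nearest the threshold had ratios of 3.06 and 3.07, and the 2 genes nearest below it that met the other conditions had 2.98 and 2.96. In all, 26 such genes had ratios between 2.5 and 3. The rises that the rule required are given as descriptions, without tests.

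The 50 genes together went from traces to a visible share of the sequenced RNA. They held 0.00313, 0.00369, 0.00352 and 0.00392% of all counts in replicates A to D at 0 h, and 0.00899, 0.0110, 0.0144 and 0.0119% at 24 h. At 48 h the shares were 0.129, 0.126, 0.172 and 0.155%. They had become 0.439, 0.372, 0.620 and 0.573% by 72 h, then 0.663, 0.676, 0.840 and 0.767% by 96 h. The libraries of successive times did not overlap, and from 24 h onward C and D lay above A and B. The mean share climbed from 0.145 ± 0.0217% at 48 h through 0.501 ± 0.115% at 72 h and ended with 0.737 ± 0.0831% at 96 h (SD over 4 libraries). In RNA from whole cultures, a change in the number of cells that express a gene and a change in RNA per cell cannot be told apart.

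**Figure D1:**
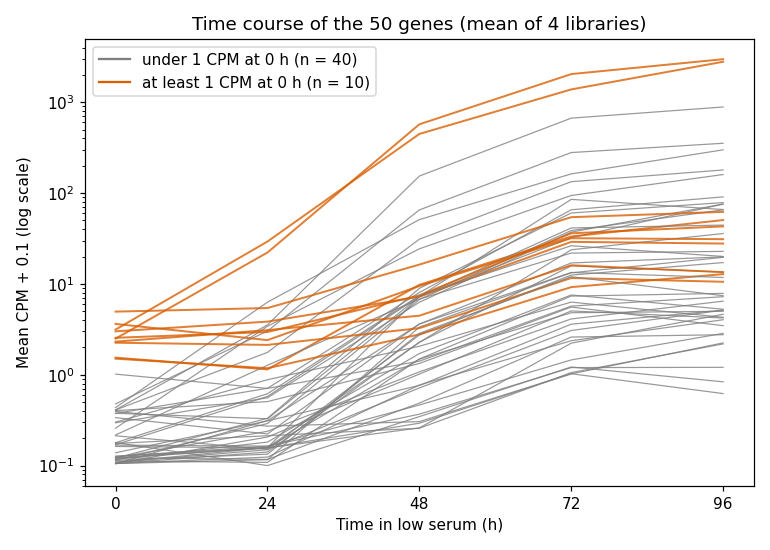
Mean level (CPM + 0.1, log scale) of each of the 50 genes against time in low serum, 1 line per gene; orange lines are the 10 genes with at least 1 CPM at 0 h and grey lines the other 40. The lines climb between 48 and 72 h, as the rule required, and the 2 most abundant genes stand apart from 48 h onward.

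Levels within the group spanned several orders of magnitude. At 72 h the lowest, median and highest gene means were 0.923, 14.5 and 2041 CPM, and at 96 h they were 0.520, 15.2 and 2979 CPM. At 0 h the same values were 0.00534, 0.0961 and 4.85 CPM. A mean of at least 1 CPM was reached by 10 genes in growing cells, by 16 after 24 h in low serum, by 37 after 48 h, and by 47 and 48 on the last 2 days. Many were close to undetected in growing cells, where 17 of the 50 had at most 3 counts over the 4 libraries together and 27 had a count in all 4 libraries. All 50 had counts in each library from 48 h on. For the genes near the limit of detection, a fold against 0 h is set largely by the 0.1 CPM added and is not given.

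A pair of genes carried most of the summed level. ENSBTAG00000009707 and ENSBTAG00000018369, the 2 most abundant at 96 h, made up 17.1 ± 3.47% of the group's counts in growing cells and 51.7 ± 5.54% after 24 h in low serum. From 48 h their part stayed between 61.7 ± 1.40%, seen at 72 h, and 67.7 ± 1.13%, seen at 48 h (SD over 4 libraries). The other 48 genes rose as a sum from 0.00295 ± 0.000220% of all counts in growing cells through 0.0469 ± 0.00583% at 48 h to a final 0.244 ± 0.0243%. The rule required each gene to rise to 72 h, so a rise of this sum was fixed by the choice of genes.

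ENSBTAG00000009707 stood at 2.06, 3.14, 1.47 and 2.93 CPM in replicates A to D at 0 h and at 14.8, 20.2, 31.8 and 21.5 CPM at 24 h. At 48 h it had 515, 449, 718 and 604 CPM. These became 1695, 1351, 2789 and 2329.7 CPM by 72 h, then 2672, 2698, 3474 and 3069.5 CPM by 96 h. Successive times did not overlap up to 72 h, whereas the highest library at 72 h lay above the lowest at 96 h. The mean ratio of 72 h to 48 h was 3.57, against 25.8 for 48 h to 24 h and 8.87 for 24 h to 0 h, so the step between 24 and 48 h was the steepest of this gene. The mean of 2041 ± 642 CPM at 72 h became 2979 ± 377 CPM on the last day (SD over 4 libraries).

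ENSBTAG00000018369 had 1.92, 4.02, 3.01 and 3.22 CPM in replicates A to D at 0 h and 18.6, 27.4, 37.8 and 32.9 CPM at 24 h. It then had 367, 417, 515 and 491 CPM at 48 h, followed by 1226, 1238, 1526 and 1546 CPM on the next day. The final values were 2312, 2597, 3254 and 3001 CPM. No library of one time overlapped with the next, the last step included. The ratios of means were 9.32, 15.3, 3.09 and 2.02 over the 4 successive days. The gene thus lay near the lower edge of the rule for its 72 h rise and had the larger last step of the pair.

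The remaining 8 of the 10 most abundant genes followed at 75.7 to 886 CPM at 96 h. Their means ranged from 0.0208 to 0.378 CPM in growing cells and from 0.232 to 6.19 CPM after 24 h in low serum. By 48 h they covered 6.18 to 154 CPM, and by 72 h 37.0 to 668 CPM. Of the 10 most abundant, 8 had at least doubled by 24 h and 10 had a higher mean at 96 h than at 72 h. Among the other 40 genes, 7 had at least doubled by 24 h and 25 had the higher mean at 96 h. The genes were ranked by the 96 h mean, which itself favours a higher mean at 96 h than at 72 h. The 0.1 CPM added before each ratio holds down the early ratios of the rarer genes, so the ratio to 0 h depends on abundance.

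The 10 genes already at 1 CPM or more in growing cells had the smaller steps by their medians. Their median ratios were 1.13 for 24 h over 0 h, 2.77 for 48 h over 24 h, 3.49 for 72 h over 48 h and 1.17 for 96 h over 72 h. The 40 genes under 1 CPM had medians of 1.36, 9.46, 4.29 and 1.29 for the same steps. Both of the most abundant genes are among the 10, and their early steps were far above these medians, as given with their levels. The other 8 had ratios of 0.663 to 1.34 for 24 h over 0 h and of 1.44 to 8.53 for 48 h over 24 h. These classes were formed after the values were seen, and the difference between them was not tested. At 24 h the mean was below that at 0 h in 4 of the 10 and in 10 of the 40. The levels of the classes overlapped from 24 h on but did not become alike. Median levels were 8.38 CPM for the 10 and 2.18 CPM for the 40 at 48 h, then 36.9 and 9.72 CPM at 96 h, when the lowest of the 10 stood at 10.5 CPM.

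For most of the group the rise had begun before the step for which it was chosen. The rule sets no condition on 48 h against 24 h, although it limits the 48 h level from above. Across the 50 genes the ratio of 48 h to 24 h had a lowest, median and highest value of 1.12, 7.62 and 46.1, where the median over all 14636 genes was 0.982. In 31 of 50 genes this ratio was at least as large as that of 72 h to 48 h, and in 42 it was at least 2. The fit on all 20 libraries is given as a description only, because the rule used the levels at 48 and 24 h in these same libraries. In it 47 of the 50 genes were higher at 48 h and 0 lower at an adjusted p under 0.05 (edgeR quasi-likelihood test), beside 31.4% of all genes higher, and 31.9% lower. The median log2 change of the 50 was 3.71, against -0.03 over all genes. The 3 genes that did not pass had log2 changes of 0.33 to 1.41. The libraries at 48 h lay above all those at 24 h in 45 of the 50 and in 28% of all genes kept. The test of this step in libraries that had not chosen the genes follows.

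**Figure D2:**
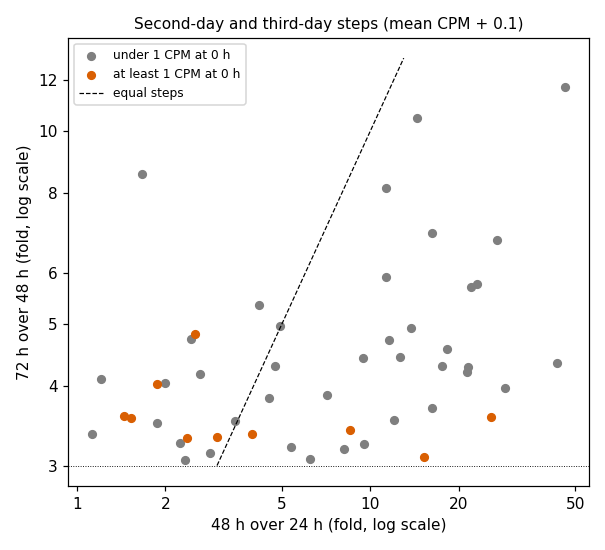
Fold of 48 h over 24 h (x axis) against fold of 72 h over 48 h (y axis) for the 50 genes, both from mean CPM + 0.1 on log scales; orange marks the 10 genes with at least 1 CPM at 0 h, the dashed line equal steps and the dotted line the threshold of 3. The 31 genes on or right of the dashed line rose at least as many fold on the earlier day, and no gene lies under the dotted line because of the rule.

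To test the pattern in libraries that had not chosen the genes, the rule was applied to each batch alone and the genes it found were then tested in the batch that had not chosen them. Batch 1 gave 30 genes and batch 2 gave 51, of which 20 were shared. Of the 50 genes, 27 were found by batch 1 and 40 by batch 2, and 47 by either. Each batch had 2 libraries per time, and why the 2 lists differ was not tested.

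The rise from 48 to 72 h recurred in the other batch. All 30 genes chosen in batch 1 were higher at 72 h in batch 2 (edgeR quasi-likelihood test, adjusted p under 0.05), where 13.2% of all genes were called higher, as against 12.4% lower. Their log2 changes had a median of 2.26 and a range of 1.62 to 3.99, and 30 of 30 were at least 3-fold. Of the 51 genes chosen in batch 2, 49 were higher in batch 1, where 12.3% of all genes rose and 12.7% fell. Their median log2 change was 1.77 with a range of 0.57 to 3.58, and 37 of 51 were at least 3-fold. All 51 changes were positive, and 48 of 51 were at least 2-fold.

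The earlier and later steps varied more. Between 24 and 48 h, 29 of the 30 genes from batch 1 rose in batch 2 (25.1% of all genes rose there, 23.3% fell) and 43 of the 51 from batch 2 rose in batch 1 (27.4% of all genes rose there, 26.3% fell). None of these genes fell in either batch by this test. In the first 24 h, 15 of 30 were called higher and 1 lower in batch 2, where 24.9% of all genes rose and 25.5% fell. In batch 1 the counts were 22 higher and 1 lower of 51, where 27.4% rose and 30.9% fell. Between 72 and 96 h, 7 of 30 were called higher and 2 lower in batch 2 (8.72% and 8.33% of all genes), and 27 of 51 higher and 4 lower in batch 1 (16.7% and 15.1%). Without replicate D at 72 h, the calls of the last step in batch 2 were 3 higher and 2 lower of 30 (2.34% and 2.11% of all genes). Without the filter on low counts they were 11 higher and 3 lower (8.46% and 6.91%). The median log2 change of the last step was 0.21 in batch 2 and 0.51 in batch 1, and the rule bounds this step on both sides in the batch that chose the genes.

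**Figure D3:**
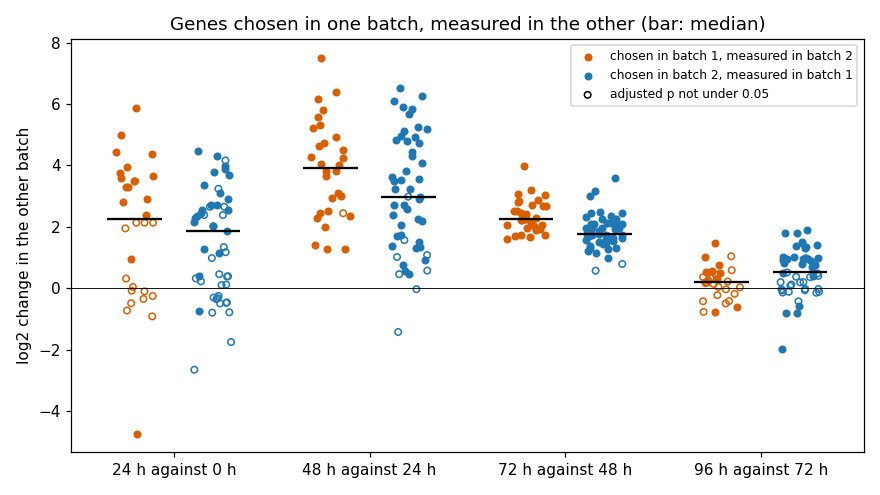
log2 change over each successive day for genes chosen by the rule in either batch and tested in the other, 1 point per gene; orange is measured in batch 2 (30 genes), blue in batch 1 (51 genes), filled points have an edgeR adjusted p under 0.05 and bars are medians. At 72 h against 48 h every point is positive and 30 of 30 and 49 of 51 are filled, while the points of the first and last day lie on both sides of 0.

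The rule found both abundant genes in each batch alone, so each could be tested in both. ENSBTAG00000009707 rose from 48 to 72 h by a log2 change of 1.96 with a standard error of 0.22 in batch 2 (edgeR adjusted p = 0.000426) and of 1.66 with a standard error of 0.17 in batch 1 (edgeR adjusted p = 0.000266). Its change from 72 to 96 h was 0.82 in batch 1 (standard error 0.16, edgeR adjusted p = 0.00682) and 0.35 in batch 2, which did not pass (standard error 0.21, edgeR adjusted p = 0.298). Without the filter on low counts the same 0.35 passed (edgeR adjusted p = 0.000829), in 1 of 15 recomputations. ENSBTAG00000018369 rose from 48 to 72 h by 1.62 in batch 2 (standard error 0.08, edgeR adjusted p = 1.32e-08) and by 1.65 in batch 1 (standard error 0.22, edgeR adjusted p = 0.00171). From 72 to 96 h it gained a further 1.02 in batch 2 (standard error 0.08, edgeR adjusted p = 7.13e-06) and 0.99 in batch 1 (standard error 0.22, edgeR adjusted p = 0.0121). In batch 1 the last of these calls was lost without replicate A at 72 h (edgeR adjusted p = 0.0984), replicate B at 72 h (0.0822) or replicate B at 96 h (0.078). Each of these fits has 1 library at the thinned time, which is assumed to vary as the libraries of the other times do.

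What followed the rise differed among the genes. The mean at 96 h was above that at 72 h in 35 of the 50 and below it in 15. The higher ones had ratios of 1.01 to 2.35 with a median of 1.43, and the lower ones had ratios of 0.605 to 0.976 with a median of 0.773. The libraries at 96 h all lay above those at 72 h in 13 genes and all below them in 1, as they did in 14.7% and 13.8% of all genes kept. By the rule a gene could neither have lost more than the bound of 1.7 allows nor have risen 2.5-fold, so these sizes are a description.

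A pair of genes whose mean was lower at 96 h than at 72 h was singled out after the values were seen. ENSBTAG00000048585 had the largest ratio of 72 h to 48 h in the group, 11.7. It had 4 counts over the 4 libraries at 0 h and 7 at 24 h, then 8.42, 5.59, 8.05 and 6.62 CPM in replicates A to D at 48 h. The next day it had 70.4, 39.3, 129.5 and 101.4 CPM, and on the last 75.1, 53.1, 72.4 and 62.5 CPM. The batches differed in the last step, with means of 54.8 and 64.1 CPM at 72 and 96 h in batch 1 and of 115 and 67.4 CPM in batch 2. It is among the genes that batch 1 alone chose, and its log2 change of 3.99 from 48 to 72 h in batch 2 is the highest of those 30. Its last step is given as a description, since the gene was picked by it. The gene is nevertheless among the 30 counted for that step in batch 2. The test of whether its time course differed between batches did not pass (F-test of the batch by time terms in edgeR, adjusted p = 0.527).

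ENSBTAG00000013124 was a rarer gene, with a lower mean at 96 h than at 72 h in both batches. It had 2 counts over the 4 libraries at 0 h, 4 at 24 h, and between 2.24 and 3.31 CPM at 48 h. In replicates A to D it had 11.2, 6.50, 16.5 and 13.4 CPM at 72 h, followed by 5.69, 4.42, 9.57 and 9.57 CPM on the last day. The lowest library at 72 h lay below the highest at 96 h. The means in batch 1 were 2.74, 8.84 and 5.05 CPM on the last 3 days. These values are a description as well. The gene is nevertheless among the 51 counted for the last step in batch 1, where its call was not kept in every recomputation.

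**Figure D4:**
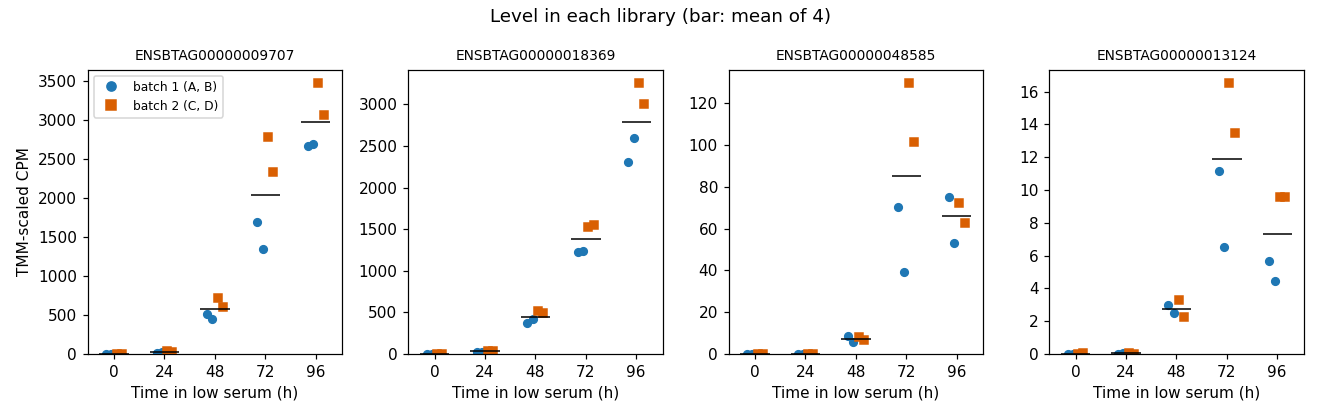
TMM-scaled CPM of 4 genes in each library against time in low serum; blue circles are replicates A and B (batch 1), orange squares C and D (batch 2) and bars the mean of 4 libraries. The first 2 genes climb to 2979 and 2791 CPM at 96 h, and the other two have their highest mean at 72 h, where the squares lie above the circles in all 4 panels.

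Many of the genes had a higher level in batch 2 than in batch 1. The rule uses means over both batches and sets no condition on their difference. High 72 h libraries in either batch still help a gene to pass, so the choice is not fully independent of that difference. Of the 50 genes, 27 were found by batch 1 alone and 40 by batch 2 alone. With time point in the model, 25 of the 50 genes were higher in batch 2 and 0 were lower (edgeR quasi-likelihood test, adjusted p under 0.05). Over all genes, 10.9% were higher in batch 2 and 8.36% lower. The test takes the 10 libraries of a batch as independent, although each batch holds the same replicate letters at every time. If a letter marks a culture followed over time, the p-values of this test are too small. A fit with the letter in place of batch cannot test this difference. The log2 differences of the 25 ranged from 0.27 to 0.69 with a median of 0.49, and the median over all 50 was 0.38. ENSBTAG00000009707 was higher by 0.46 (standard error 0.12, edgeR adjusted p = 0.0126), ENSBTAG00000018369 by 0.37 (standard error 0.08, edgeR adjusted p = 0.00638) and ENSBTAG00000013124 by 0.61 (standard error 0.16, edgeR adjusted p = 0.0113). ENSBTAG00000048585 had a difference of 0.45 that did not pass (standard error 0.19, edgeR adjusted p = 0.104). It passed in 2 of 24 recomputations, without replicate A at 96 h (0.58, edgeR adjusted p = 0.0447) and without the filter on low counts (0.44, edgeR adjusted p = 7.08e-09).

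The gap between batches was widest at 72 h, a time whose level the rule selects for, so its size there is a description. The median log2 ratio of batch 2 to batch 1 over the 50 genes was 0.07 in growing cells, 0.18 after 24 h, 0.16 after 48 h, 0.65 after 72 h and 0.24 after 96 h, where the medians over all genes lay between -0.01 and 0.03. Batch 2 had the higher mean in 31, 33, 39, 49 and 41 of the 50 genes at these times. Over all genes kept the shares were 46.7%, 54.9%, 51.2%, 54.5% and 51.2%. In step with this, the median log2 change from 48 to 72 h was 1.79 in batch 1 and 2.23 in batch 2, and that from 72 to 96 h was 0.49 in batch 1 and 0.20 in batch 2. The difference in time course was not called for any of the 50 (F-test of these terms in edgeR, 0 at an adjusted p under 0.05 and 9 at an unadjusted p under 0.05, where 0.00683% and 9.72% of all genes passed). DESeq2 also called 0, with 19 of the 50 given no adjusted p. Without the filter on low counts 15 of the 50 passed, where 5.54% of all genes did. What the batches differ in besides the replicates is not given in the sources used here, and the part it has in these values was not tested.

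The libraries of one time lay apart from each other for this group, most widely at 72 h. Among the 30 genes with at least 10 CPM at 72 h, the median deviation from the time mean on the log2 scale was -0.12 in replicate A, -0.54 in B, 0.42 in C and 0.23 in D. Replicate B lay below the time mean in 30 of 30 genes, and replicates C and D lay above it in 29 and 28. Over all genes kept, the medians of these libraries were between -0.02 and 0.01. At 24 h the 30 genes had medians of -0.43, 0.04, 0.34 and 0.01 in replicates A to D, a range nearly as wide, with replicate A and not B the lowest. At 48 h the medians were -0.13, -0.19, 0.27 and 0.04, and on the last day -0.06, -0.19, 0.23 and 0.06. On that last day replicate B again lay below the time mean in 30 of 30 genes, and replicate C above it in 29. Without replicate B at 72 h the batch difference was called for 21 of the 50 genes, and without replicate C at 72 h for 19, all higher in batch 2. The share of all genes called in these fits is not given here, so these counts are a description.

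**Figure D5:**
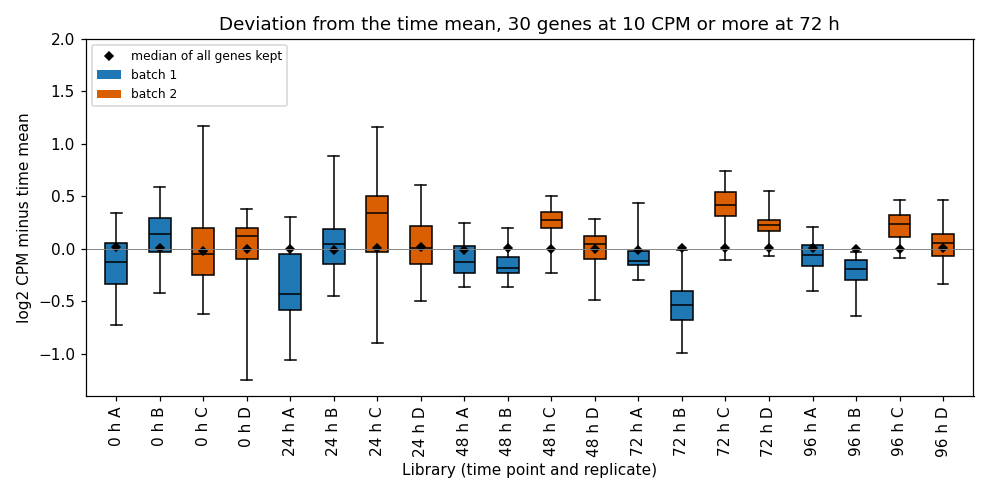
log2 CPM minus the mean of the 4 libraries of the same time, for the 30 genes with at least 10 CPM at 72 h, by library; boxes show quartiles and median, whiskers the full range, blue is batch 1, orange batch 2, and diamonds the median over all genes kept. At 72 h the medians run from -0.54 in replicate B to 0.42 in replicate C, while the diamonds stay near 0.

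The spread between replicates was also wide for these genes. The median coefficient of variation over 4 libraries was 17.7, 27.5 and 13.8% on the last 3 days for the 30 genes, against 7.42%, 8.52% and 6.89% for the 8936 genes with at least 10 CPM at 72 h. Between the 2 libraries of one batch it was 10.3%, 13.6% and 8.59%, against 3.43%, 4.67% and 4.73%. The 2 sets share only the condition of at least 10 CPM at 72 h, and by the rule the 30 genes stood lower at 48 h. These comparisons were not tested. At 72 h the 4 libraries nevertheless lay above all those at 48 h in 49 of the 50 genes, which the rule favours, and in 15.4% of all genes.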

How the data were processed

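The library kit keeps the strand and reads were 75 bp long, per the labels' protocols. STAR 2.7, featureCounts and build bosTau9 are named, per the submitters' processing notes. Strand setting and annotation: not given in the sources used here. What the authors deposited is a table of raw counts, every line of which has a gene identifier. Genes were filtered with filterByExpr (minimum count 10, minimum total 15), which kept at least 99.967% of each library's counts, and scaled by TMM. Two-sided edgeR 4.0.16 quasi-likelihood tests (R 4.3.3, robust) used time point and batch on all 20 libraries, or time point alone within a batch, with Benjamini-Hochberg adjustment over all genes. Of these tests, only 72 h against 48 h in batch 2 and 48 h against 24 h on all libraries were tried on simulated counts. Those counts had the same spread for every gene, and changes were set only in genes that were not rare. The tests of batch, of batch by time and of the other steps were not tried in that way. DESeq2 1.42.0 was an alternative. The members, rules and lists were chosen with earlier results of these data known. The named genes are the 2 members most abundant at 96 h, the rule where no symbol exists, and 2 chosen after their values were seen. The 225 listed symbols matched 0 identifiers, so no list was counted. The p-values measure the spread between these replicates; overlapping or near-identical genes could not be recognised.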

Additional observations from a re-analysis of the deposited data

How the results depend on the processing

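The rule gave 50 genes with TMM, 51 with RLE scaling (50 shared), 42 with library sizes alone (40 shared), 42 with 0.5 CPM added in place of 0.1 (41 shared), 50 without the filter, and 30 in batch 1 alone. Without single libraries it gave 42 to 58, fewest without replicate C and most without replicate B at 72 h. With library sizes alone the median log2 change over all genes was -0.32 from 24 to 48 h and -0.11 from 48 to 72 h; TMM gave -0.03 and -0.01. Of 219 recomputed counts, 215 stayed within 1.5 times the reported one. Without the low-count filter, batch by time called 15 of the 50 genes and the last step in batch 2 called 14 of 30, and the cause was not tested.

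With each library left out in turn, calls among the 50 genes ranged from 45 to 47 for 48 h against 24 h, from 19 to 28 for the batch difference and from 0 to 0 for batch by time. For genes from batch 1 measured in batch 2 they ranged, by step, from 12 to 17, 27 to 29, 27 to 30 and 5 to 12. For genes from batch 2 measured in batch 1 they ranged from 16 to 25, 38 to 45, 43 to 49 and 23 to 33. The shares of all genes called in these fits are not given here, so these ranges are a description and no measure of how stable the genes are. The changes of named genes kept direction and call in 546 of 556 recomputations. The change of ENSBTAG00000013124 from 0 to 24 h was measured in batch 1 and was not called. In that batch only replicate B had counts of this gene at 24 h. The change ranged from -2.07 without replicate B at 24 h to 3.18 without replicate B at 0 h.

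Replicate letters were treated as names and not as pairs, because same-letter deviations from the time means correlated by a median of 0.14 (range -0.35 to 0.53), with 22 of 40 pairs over 0.1. With the letter as a replicate block, 46 of the 50 genes were called between 24 and 48 h. Between 48 and 72 h, 30 of 30 and 49 of 51 were called in the batch that had not chosen them. The shares of all genes called with the block are not given here, so these counts are a description too. The tests of gene lists were not run because no symbol was available.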
